A study of Mus musculus with 9 samples.

Results

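Fos, Fosb, Jun, Junb, Egr1, Ier2, Atf3, Dusp1, Nr4a1 and Btg2 are immediate early genes, which are also known to be induced when a tissue is taken apart into single cells. They were chosen by name, as 10 of the 78239 genes counted in 9 libraries of sorted mouse intestinal epithelium. The counts of these libraries did not enter the rule, but earlier results of these data were known when it was set. All 10 had enough counts to be tested. The 3 groups, of 3 libraries each, were colon GFP-high cells, colon GFP-negative cells and small intestinal cells, from mice 8 weeks old that carry the Lgr5-2A-eGFP reporter, in which GFP follows the stem cell receptor gene Lgr5. All groups shared the reporter and the way the cells were prepared: a chelation buffer released the crypts, TrypLE made single cells and a flow cytometer sorted them on GFP, so no group of undissociated tissue stands beside them. At least 30000 cells were collected per colon fraction and 50000 per small intestinal fraction, and polyadenylated RNA was sequenced. The labels name no GFP fraction for the small intestinal libraries, and in any comparison with them tissue and fraction cannot be told apart. Nor do they say that replicates were separate animals, and p-values here measure only how much these samples vary. Where 3 values are given for a group, they stand in the order of replicates 1 to 3.

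Immediate early genes are transcribed within minutes of a stimulus without the need for new protein, through factors such as SRF, the TCF proteins and CREB that already sit in the cell and are switched on by MAP kinases and other kinases. Many of them encode transcription factors, among them the FOS and JUN proteins that pair to form AP-1, and others encode proteins that shut the signal off again. Their transcripts are short-lived, and in intestinal epithelium they respond to growth factors, injury and enzymatic or mechanical dissociation.

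Promoter sequence is shown for 3 of the genes: Nr4a1, because it was the 1 gene of the 10 whose level differed between colon and small intestine, and Fos and Dusp1, an AP-1 subunit gene and a feedback gene that varied between libraries without such a difference. RefSeq's GRCm38.p6 promoter table held 8 of the 10 genes (not Egr1 and Ier2), each as a window of 250 bases before to 50 bases after the transcript start. The 250 bases before the start are printed 5′ to 3′ on the gene's own strand. Capitals mark TGACG, the half-site of the cyclic AMP response element that CREB and ATF proteins can bind, or its reverse complement CGTCA, and in Dusp1 also the full element TGACGTCA, which holds a half-site on each strand. The Nr4a1 stretch is chr15:101266596-101266845 (plus strand), that of Fos chr12:85473640-85473889 (plus strand) and that of Dusp1 chr17:26508473-26508722 (minus strand).
Nr4a1: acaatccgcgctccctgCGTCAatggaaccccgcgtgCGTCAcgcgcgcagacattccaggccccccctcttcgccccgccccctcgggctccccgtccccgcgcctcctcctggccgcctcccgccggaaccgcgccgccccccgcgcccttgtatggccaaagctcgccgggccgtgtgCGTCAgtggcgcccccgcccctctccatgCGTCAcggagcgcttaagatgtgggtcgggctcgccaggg
Fos: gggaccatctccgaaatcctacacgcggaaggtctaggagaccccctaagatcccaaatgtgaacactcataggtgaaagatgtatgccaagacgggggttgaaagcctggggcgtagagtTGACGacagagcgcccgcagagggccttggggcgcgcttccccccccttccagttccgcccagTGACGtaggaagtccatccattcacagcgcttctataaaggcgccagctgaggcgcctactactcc
Dusp1: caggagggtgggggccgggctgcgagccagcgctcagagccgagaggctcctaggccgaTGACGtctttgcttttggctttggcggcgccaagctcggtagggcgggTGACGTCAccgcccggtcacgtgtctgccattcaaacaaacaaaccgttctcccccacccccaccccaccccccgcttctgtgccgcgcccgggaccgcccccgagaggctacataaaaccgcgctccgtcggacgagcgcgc
Counted over both strands, the half-site was found 4 times in Nr4a1, 3 times in Dusp1 and 2 times in Fos. The Dusp1 count includes the overlapping pair inside its full element. At least 1 half-site was in the windows of 7 of the 8 genes (not Jun), against 20.8% of all 32851 windows, and 4 or more were in 0.231% of all windows. The full element was in Dusp1 and Btg2 and in 1.79% of all windows. The AP-1 element TGANTCA was in none of the 8 windows and in 7.81% of all. TATAAA was in Fos and Junb and in 8.32% of all windows. A match is a description of these letters and not a binding site, and in the annotation used for coordinates the Nr4a1 and Dusp1 gene models begin upstream of these stretches, so both stretches lie inside the annotated genes.

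The libraries held 86621513 to 106673547 counts. All 8 epithelial markers were detected in each library, at 12635 to 29053 CPM (counts scaled to library size, itself scaled by a TMM factor) summed over the list. Lgr5 went against the labels in 1 pair of libraries: 43.5, 0.958 and 73.0 CPM were counted in the libraries labelled GFP-high, and 2.84, 62.1 and 6.28 CPM in those labelled GFP-negative, so that replicate 2 was the odd one of each. Directions between the colon fractions are given as labelled, although Lgr5 contradicts the labels of that pair. Groups or libraries with fewer cells that express a gene and those with less of its RNA per cell cannot be told apart in such bulk samples. Leukocyte markers, of which 19 were listed, summed to 168, 478 and 135 CPM in the GFP-high colon libraries, to 834, 103 and 3192 CPM in the GFP-negative colon libraries and to 79.9, 63.9 and 78.8 CPM in the small intestinal libraries. All 19 were detected in the library labelled replicate 2 of colon GFP-high and in colon GFP-negative replicates 1 and 3. In contrast 11, among them the myeloid genes Csf1r and Adgre1, were at 0 in colon GFP-high replicate 1, and 8 were at 0 in the library labelled replicate 2 of colon GFP-negative.

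None of the 10 genes was called between the colon fractions, and 9 of them were not called between colon and small intestine either. By median level per length, Ier2, Fos and Junb were the highest, and Fosb was the lowest. Nr4a1 was the exception, 22.3-fold higher in colon than in small intestine. The plot of CPM by gene and library shows all 90 values.

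**Figure D1:**
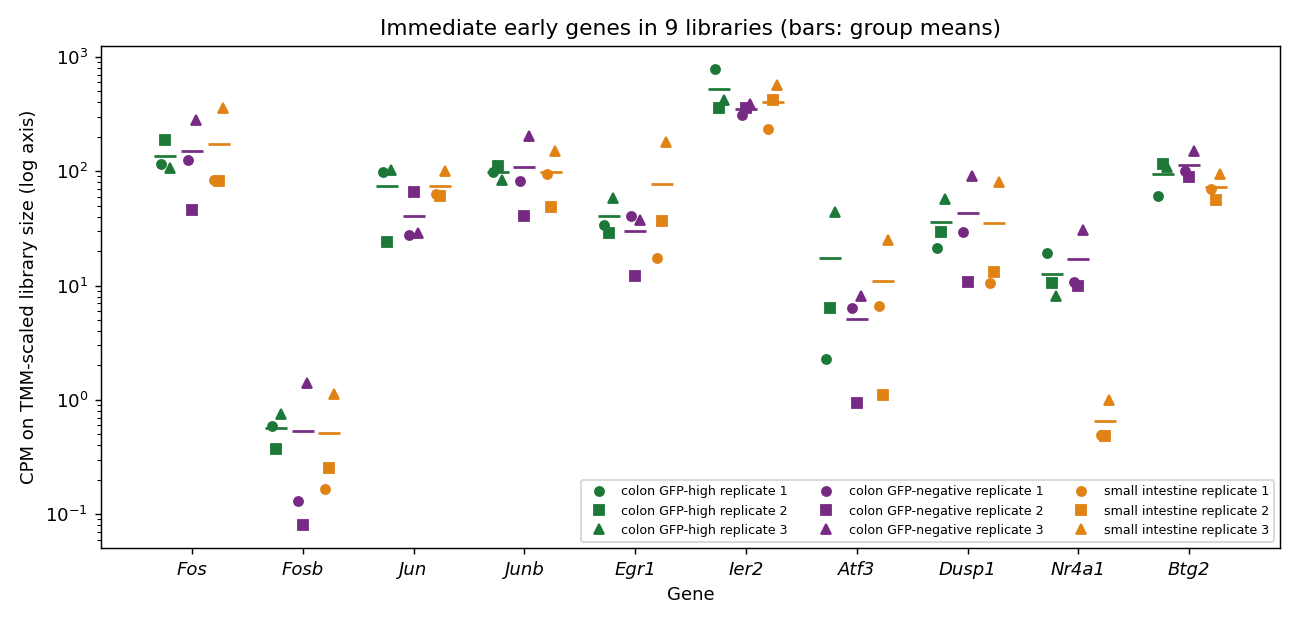
Level of each of the 10 genes in each of the 9 libraries, as CPM on the TMM-scaled library size on a log axis. Colours are the groups, marker shapes the replicates and bars the group means. The groups overlap for every gene but Nr4a1, whose small intestinal values lie between 0.478 and 0.999 CPM and whose colon values lie between 8.03 and 30.6 CPM.

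Fos (ENSMUSG00000021250.14, chromosome 12, 85473890 to 85477273, plus strand) encodes the FOS partner of AP-1. It had 116, 186 and 107 CPM in the GFP-high colon libraries, 124, 45.4 and 281 CPM in the GFP-negative colon libraries, and 83.7, 82.96 and 357 CPM in the small intestinal libraries. The lowest and the second highest of these 9 values were both colon GFP-negative libraries, and all 3 groups overlapped. Means were 136 ± 43.4 CPM in colon GFP-high, 150.4 ± 120.1 CPM in colon GFP-negative and 175 ± 158 CPM in small intestine (SD, n = 3 each). The log2 fold change was -0.15 ± 0.73 (SE) for colon GFP-high over colon GFP-negative (edgeR quasi-likelihood test, Benjamini-Hochberg adjusted p = 1) and -0.28 ± 0.63 for both colon groups over small intestine (adjusted p = 0.823), both smaller than their standard errors.

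Fosb (ENSMUSG00000003545.4, chromosome 7, 19302696 to 19310051, minus strand), a close relative of Fos, was counted 62, 34 and 81 times in the GFP-high colon libraries, 10, 8 and 130 times in the GFP-negative colon libraries, and 12, 26 and 144 times in the small intestinal libraries. That is 0.592, 0.370 and 0.754 CPM in the GFP-high colon libraries, 0.130, 0.0797 and 1.39 CPM in the GFP-negative colon libraries, and 0.165, 0.254 and 1.12 CPM in small intestine. Replicate 3 held the highest count in each group. The log2 fold change was 0.08 ± 1.16 for colon GFP-high over colon GFP-negative and 0.12 ± 1.01 for both colon groups over small intestine (edgeR adjusted p = 1 and 0.959).

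Jun (ENSMUSG00000052684.6, chromosome 4, 95049034 to 95052222, minus strand), which encodes the JUN partner of AP-1, had 98.2, 24.2 and 102 CPM in the GFP-high colon libraries, 27.9, 65.4 and 29.1 CPM in the GFP-negative colon libraries, and 62.7, 60.6 and 100.95 CPM in the small intestinal libraries. The library labelled replicate 2 was the lowest of colon GFP-high and the highest of colon GFP-negative, and the groups overlapped, with a log2 fold change of 0.88 ± 0.55 for colon GFP-high over colon GFP-negative (edgeR adjusted p = 1) and -0.44 ± 0.47 for both colon groups over small intestine (adjusted p = 0.608). With both colon replicate 2 libraries left out, since Lgr5 contradicts their labels, the estimate for colon GFP-high over colon GFP-negative was 1.81 ± 0.36 (adjusted p = 0.353). By Lgr5 instead of the labels, the colon libraries with high Lgr5 had 98.2, 65.4 and 102 CPM of Jun. Those with low Lgr5 had 27.9, 24.2 and 29.1 CPM. Fos split the other way, with 116, 45.4 and 107 CPM in the libraries with high Lgr5 and 124, 186 and 281 CPM in those with low Lgr5. These splits were seen in the data and were not tested, and the share of all genes that split by Lgr5 was not computed.

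Junb (ENSMUSG00000052837.8, chromosome 8, 84974484 to 84978718, minus strand) encodes another JUN protein, one known to act more weakly on many AP-1 targets than JUN. It had 98.5, 112 and 83.5 CPM in the GFP-high colon libraries, 82.3, 40.8 and 205 CPM in the GFP-negative colon libraries, and 94.8, 48.5 and 151 CPM in the small intestinal libraries. The colon GFP-high values lay inside the range of both other groups. Log2 fold changes were -0.17 ± 0.58 for colon GFP-high over colon GFP-negative and 0.08 ± 0.50 for both colon groups over small intestine (edgeR adjusted p = 1 and 0.942).

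Atf3 (ENSMUSG00000026628.14, chromosome 1, 191170296 to 191218039, minus strand), a stress-induced bZIP factor that can pair with JUN proteins, had 2.27, 6.37 and 44.0 CPM in the GFP-high colon libraries, 6.31, 0.937 and 8.08 CPM in the GFP-negative colon libraries, and 6.61, 1.09 and 25.2 CPM in the small intestinal libraries. Replicate 3 was the highest in each group, and its highest and lowest libraries differed 19.4-fold in colon GFP-high, 8.63-fold in colon GFP-negative and 23.1-fold in small intestine. The log2 fold change of 1.76 ± 1.32 for colon GFP-high over colon GFP-negative (edgeR adjusted p = 1) rested on replicate 3 of GFP-high and came to -0.26 without that library. For both colon groups over small intestine it was -0.21 ± 1.10 (adjusted p = 0.928).

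Within the JUN family, shares of the summed RPKM, in which read counts are divided by gene length, compare levels between genes. Jund, the family member that is expressed steadily in most cells, took 41.9% to 55.9% of it over the 9 libraries, Junb 22.1% to 45.8% and Jun 4.69% to 25.6%. Fos took 95.3% to 99.0% of the summed RPKM of the FOS family in every library. The 13 tested genes of the other AP-1 proteins (from Jund and the FOS-like, ATF, MAF and BATF genes; 14 measured) gave no call in any of the 4 comparisons, and none of their adjusted p-values was under 0.0797. Jund had 121, 109 and 96.0 CPM in the GFP-high colon libraries, 94.1, 69.8 and 160.2 CPM in the GFP-negative colon libraries, and 78.4, 82.1 and 117 CPM in the small intestinal libraries; its estimate was 0.23 ± 0.29 (log2) for both colon groups over small intestine (edgeR adjusted p = 0.663).

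Egr1 (ENSMUSG00000038418.9, chromosome 18) encodes a zinc finger transcription factor that SRF and the TCF proteins switch on. It had 33.6, 29.1 and 58.1 CPM in the GFP-high colon libraries, 40.2, 12.2 and 37.5 CPM in the GFP-negative colon libraries, and 17.6, 36.5 and 180.2 CPM in the small intestinal libraries. A single library, small intestinal replicate 3, stood far above the rest, and the other 2 small intestinal values lay within the colon range. The log2 fold change was 0.42 ± 0.80 for colon GFP-high over colon GFP-negative (edgeR adjusted p = 1). It was -1.17 ± 0.67 for both colon groups over small intestine (adjusted p = 0.318) and came to 0.34 without small intestinal replicate 3.

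Ier2 (ENSMUSG00000053560.6, chromosome 8, 84661331 to 84662852, minus strand), a small nuclear protein gene of the early response, had 788, 359 and 420.0 CPM in the GFP-high colon libraries, 311, 359 and 387 CPM in the GFP-negative colon libraries, and 233, 419 and 565 CPM in the small intestinal libraries. Colon GFP-high replicate 1 was the highest library and small intestinal replicate 1 the lowest, and the groups overlapped. Log2 fold changes were 0.57 ± 0.40 for colon GFP-high over colon GFP-negative and 0.08 ± 0.35 for both colon groups over small intestine (edgeR adjusted p = 1 and 0.911). Per length, Ier2 was the highest of the 10 genes in all 9 libraries, at 153 to 517 RPKM with a median of 254 RPKM. Fosb was the lowest in all 9, at 0.0128 to 0.223 RPKM.

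Nr4a1 (ENSMUSG00000023034.8, chromosome 15, 101254269 to 101274795, plus strand) encodes NUR77, an orphan nuclear receptor induced by growth factor, calcium and cyclic AMP signals. It had 19.1, 10.5 and 8.03 CPM in the GFP-high colon libraries, 10.7, 9.95 and 30.6 CPM in the GFP-negative colon libraries, and 0.494, 0.478 and 0.999 CPM in the small intestinal libraries. Every colon library stood above every small intestinal one, and the colon fractions overlapped. Means were 12.6 ± 5.83 CPM in colon GFP-high, 17.1 ± 11.7 CPM in colon GFP-negative and 0.657 ± 0.297 CPM in small intestine (SD, n = 3 each).

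Nr4a1 was higher in both colon groups than in small intestine by a log2 fold change of 4.48 ± 0.62, or 22.3-fold (edgeR adjusted p = 0.00338). For colon GFP-high over small intestine it was 4.25 ± 0.64, or 19.1-fold (adjusted p = 0.0068), and for colon GFP-negative over small intestine 4.70 ± 0.65, or 26.0-fold (adjusted p = 0.00461). These comparisons share the small intestinal libraries. Between the colon fractions the log2 fold change was -0.45 ± 0.56 (adjusted p = 1). Without colon GFP-negative replicate 3, the library with the highest Nr4a1 and the most leukocyte markers, the colon GFP-negative value came to 3.96. With both colon replicate 2 libraries left out, the value for both colon groups was 4.67 ± 0.64 (adjusted p = 0.00915).

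Markers of other cell types also differed between the tissues. Leukocyte markers summed to 103 to 3192 CPM in the 6 colon libraries and to 63.9 to 79.9 CPM in the small intestinal ones, and 1 of 19 (Cd14) was called higher for both colon groups over small intestine. Markers at 1 CPM or more numbered 1, 16 and 2 of the 19 in the GFP-high colon libraries. The GFP-negative colon libraries had 18, 2 and 19 such markers, and the small intestinal ones 13, 5 and 11. By this count colon GFP-high replicates 1 and 3 and the library labelled replicate 2 of colon GFP-negative lay below all small intestinal ones. Colon GFP-high replicate 1, with 11 of the 19 at 0 and a sum of 168 CPM, had 19.1 CPM of Nr4a1. Goblet cell markers summed to 7476 to 46813 CPM in colon and 1908 to 19390 CPM in small intestine, with 4 of 8 called higher. Stem cell markers summed to 355 to 1743 CPM in colon and 6143 to 11794 CPM in small intestine, with 2 of 10 (Olfm4 and Tnfrsf19) called lower. Olfm4 had the highest mean CPM of these 10, so it weighs most in the sum. Their median log2 fold change was -1.43 for both colon groups over small intestine. The part of leukocytes, goblet cells and stem cells in the Nr4a1 difference was not tested.

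Some library names in the labels share a tag, whose meaning is not given. With that tag as a block (the tag replicate block), the Nr4a1 calls were lost, at 4.13 for colon GFP-high (adjusted p = 0.174), 3.87 for colon GFP-negative (adjusted p = 0.332) and 3.998 for both (adjusted p = 0.188). Colon GFP-negative replicate 3 and small intestinal replicate 1 share their tag with no other library and so add nothing to these fold changes. Little is then left to estimate the spread, so the lost call alone cannot decide whether the difference depends on the tag. Values within a tag had the direction of the whole comparison. Tags shared by colon and small intestinal libraries allowed 3 pairs: colon GFP-high replicate 1 at 19.1 CPM and colon GFP-negative replicate 1 at 10.7 CPM shared a tag with small intestinal replicate 2 at 0.478 CPM, and colon GFP-high replicate 3 at 8.03 CPM shared one with small intestinal replicate 3 at 0.999 CPM. The log2 differences were 5.27, 4.43 and 2.99, higher in colon in all 3 pairs.

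The related receptor genes Nr4a2 and Nr4a3, named here after their values were seen, were compared with it. Nr4a2 had 7.85, 13.1 and 9.65 CPM in the GFP-high colon libraries, 6.42, 12.3 and 6.27 CPM in the GFP-negative colon libraries, and 6.79, 12.6 and 15.7 CPM in the small intestinal libraries, overlapping between all groups; its estimate was -0.34 ± 0.35 (log2) for both colon groups over small intestine (edgeR adjusted p = 0.589). Nr4a3 reached 1.01 CPM in colon GFP-negative replicate 3 and 0.267 CPM in colon GFP-high replicate 1, was under 0.1 CPM in the other 4 colon libraries and at 0 in all small intestinal ones; its highest values were in the 2 libraries with the highest Nr4a1, and it was too low to be tested. Per length, Nr4a1 took 48.2% to 73.4% of the family's summed RPKM in colon GFP-high, 48.3% to 83.6% in colon GFP-negative and 4.22% to 7.76% in small intestine, where Nr4a2 held 92.2% to 95.8%.

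**Figure D2:**
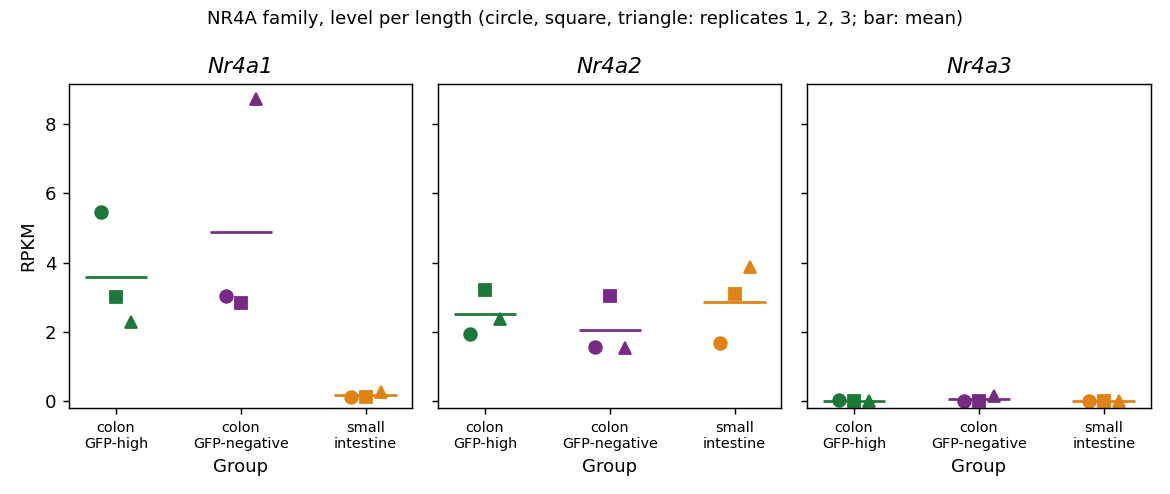
Level per length (RPKM) of Nr4a1, Nr4a2 and Nr4a3 by group; circles, squares and triangles are replicates 1, 2 and 3 and bars are group means. Nr4a1 lies between 2.29 and 8.72 RPKM in the colon libraries and between 0.136 and 0.285 RPKM in the small intestinal ones, while the Nr4a2 values of the groups overlap.

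Dusp1 (ENSMUSG00000024190.8, chromosome 17, 26505590 to 26562128, minus strand) encodes a phosphatase that inactivates MAP kinases and so closes the loop on the early response. It had 21.4, 29.4 and 57.3 CPM in the GFP-high colon libraries, 29.2, 10.7 and 90.4 CPM in the GFP-negative colon libraries, and 10.6, 13.1 and 81.0 CPM in the small intestinal libraries. Replicate 3 was again the highest of each group. Log2 fold changes were -0.29 ± 0.93 for colon GFP-high over colon GFP-negative and 0.18 ± 0.81 for both colon groups over small intestine (edgeR adjusted p = 1 and 0.917).

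Btg2 (ENSMUSG00000020423.7, chromosome 1, 134075170 to 134079120, minus strand) encodes an antiproliferative protein that recruits mRNA deadenylases and is also a p53 target. It had 60.6, 117 and 108 CPM in the GFP-high colon libraries, 99.9, 88.4 and 150.25 CPM in the GFP-negative colon libraries, and 69.9, 56.2 and 94.1 CPM in the small intestinal libraries. All groups overlapped, and the highest and lowest of the 9 values differed 2.67-fold. Log2 fold changes were -0.25 ± 0.33 for colon GFP-high over colon GFP-negative and 0.50 ± 0.29 for both colon groups over small intestine (edgeR adjusted p = 1 and 0.336).

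The comparison of the colon fractions asks which genes follow the Lgr5 reporter. None of the 10 genes was called there by edgeR, against 0.00% of all 20610 genes tested, and none had an unadjusted p under 0.05, against 1.10% of all genes. DESeq2 and limma-voom called none of the 10 either. No gene had fractions that did not overlap, against 4.41% of all genes. Estimates were above 0 for 5 of the 10 and below 0 for the other 5, with a median log2 fold change of -0.04, beside -0.02 over all genes. With both replicate 2 libraries left out, the 10 estimates ran from -0.87 (Fos) to 1.81 (Jun) and none was called, with adjusted p-values of 0.353 to 0.991.

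Comparisons with the small intestine ask how the tissues differ. Nr4a1 was the 1 of 10 called in each, and it was higher in colon. For colon GFP-high over small intestine 5.69% of all genes were called in either direction, for colon GFP-negative over small intestine 5.66% and for both colon groups over small intestine 8.79%. It was also the 1 of 10 whose groups did not overlap, against 27.3%, 27.5% and 17.9% of all genes in the same order. Over the 10 genes the median log2 fold change was 0.10, -0.06 and 0.08, beside 0.02, -0.00 and -0.00 over all genes. The count of 1 in 10 is near the share of all genes called, so it says nothing particular of the 10 genes as a group.

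**Figure D3:**
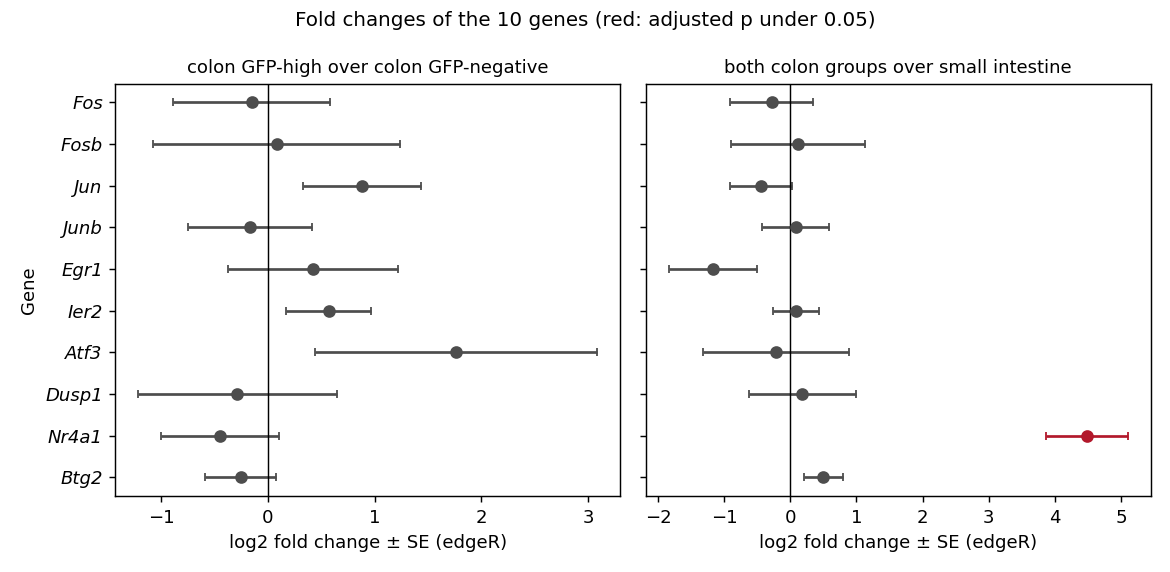
Log2 fold change (edgeR, bars are standard errors) of the 10 genes for colon GFP-high over colon GFP-negative on the left and both colon groups over small intestine on the right, with red for an adjusted p under 0.05. Nr4a1 at 4.48 in the right panel is the only red point, and in the left panel most bars cross 0.

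Most of the genes were high in the same libraries and low in the same libraries. Small intestinal replicate 3 was the highest of its group for 10 of 10 genes, colon GFP-negative replicate 3 for 8 and colon GFP-high replicate 3 for 5. Over all 9 libraries, the replicates numbered 3 held the highest value of 9 of the 10 genes and the lowest of none, Ier2 being the exception. The counts in this paragraph were not made over all genes, so they cannot tell a trait of the 10 genes from one of these libraries. The library labelled replicate 2 of colon GFP-negative was the lowest of the 9 for 5 genes, and with small intestinal replicates 1 and 2 it held the lowest value of 9 genes. These libraries were put together after their values were seen, and the 9 genes include Nr4a1, which was low in every small intestinal library.

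Set against each gene's own mean log2 CPM, the median of the 10 genes was -0.01, 0.12 and 0.70 in the GFP-high colon libraries, 0.00, -1.28 and 0.94 in the GFP-negative colon libraries, and -0.70, -0.65 and 1.17 in the small intestinal libraries. In summed CPM the 10 genes made up 1238, 874 and 988 CPM in the GFP-high colon libraries, 732, 633 and 1221 CPM in the GFP-negative colon libraries, and 579, 719 and 1556 CPM in small intestine. The high summed value of colon GFP-high replicate 1 came mostly from Ier2, at 788 CPM. The replicate numbers are titles of the samples, and the labels do not say that a number marks a shared animal or day.

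**Figure D4:**
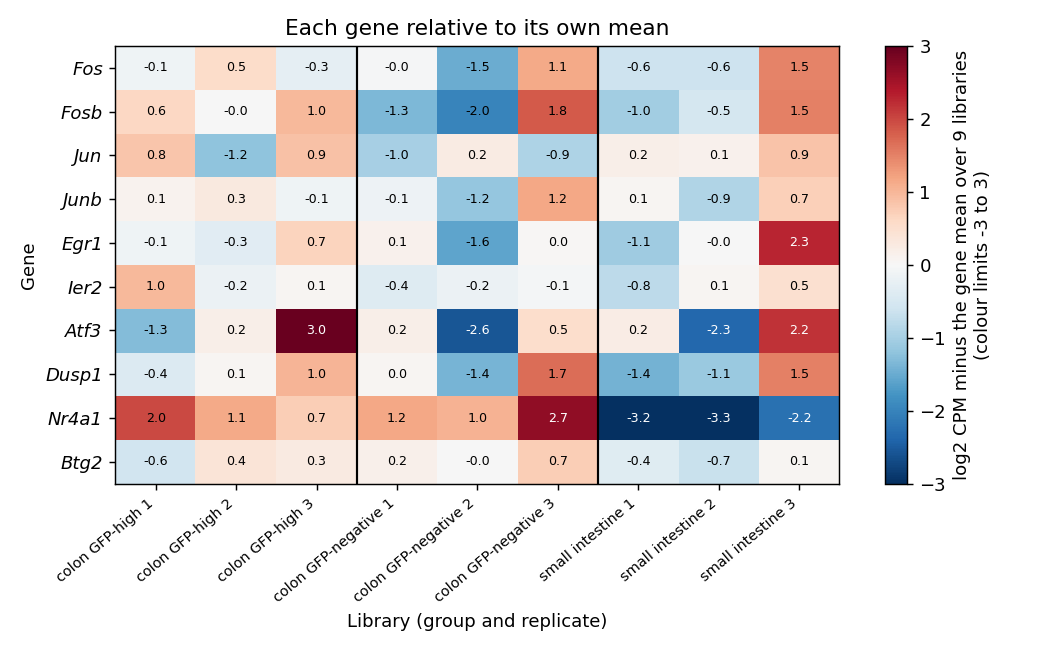
Log2 CPM of each gene minus its mean over the 9 libraries, with genes in rows and libraries in columns, red for above and blue for below the mean (colour limits -3 to 3). Colon GFP-negative replicate 3 and small intestinal replicate 3 are red for most genes, the library labelled replicate 2 of colon GFP-negative is blue for most, and Nr4a1 is blue in all 3 small intestinal libraries.

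Several other measures varied between the same libraries. The leukocyte sum was 135 CPM in colon GFP-high replicate 3, 3192 CPM in colon GFP-negative replicate 3 and 78.8 CPM in small intestinal replicate 3. Tuft cell markers, all 8 of which were detected in every library, summed to 147, 512 and 606 CPM in the GFP-high colon libraries, 154, 143 and 213 CPM in the GFP-negative colon libraries, and 99.6, 179.9 and 579 CPM in the small intestinal libraries. Replicate 3 had the highest tuft sum of each group. Stromal markers summed to 2.41 to 59.7 CPM, the highest in colon GFP-negative replicate 3, where the fibroblast collagen genes Col1a1, Col1a2 and Col3a1 were at 0. Mitochondrial genes took 0.959% of counts in colon GFP-high replicate 3, 1.21% in colon GFP-negative replicate 3 and 0.691% in small intestinal replicate 3, within the range of 0.678% to 1.26% over all libraries. The part of leukocytes, tuft cells, stromal cells and mitochondrial RNA in the level of the 10 genes was not tested.

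In the groups as labelled, the genes varied more between replicates than most genes did. The SD of log2 CPM between replicates of a group, pooled over the 3 groups, was 2.05 for Atf3, 1.35 for Dusp1, 1.18 for Egr1, 1.06 for Fos, 0.83 for Jun, 0.83 for Junb, 0.72 for Nr4a1, 0.52 for Ier2 and 0.43 for Btg2. Among the 10288 genes that averaged 5 CPM or more, the median was 0.43, and 96.8% of them had a smaller SD than Atf3, 94.3% than Dusp1, 93.1% than Egr1 and 91.9% than Fos. Of the 9 genes that reached 5 CPM, 7 were in the top 20% of all genes by this SD, Jun among them. The SD includes the colon replicate 2 pair, whose labels Lgr5 contradicts. For Jun that pair was the odd one of each group. Its centred values were 0.83, -1.20 and 0.88 in the GFP-high colon libraries and -0.99, 0.24 and -0.93 in the GFP-negative ones. Fosb was below that level. Btg2 was near the middle, with 50.9% of genes below it, and Ier2 had 65.4% below it.

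**Figure D5:**
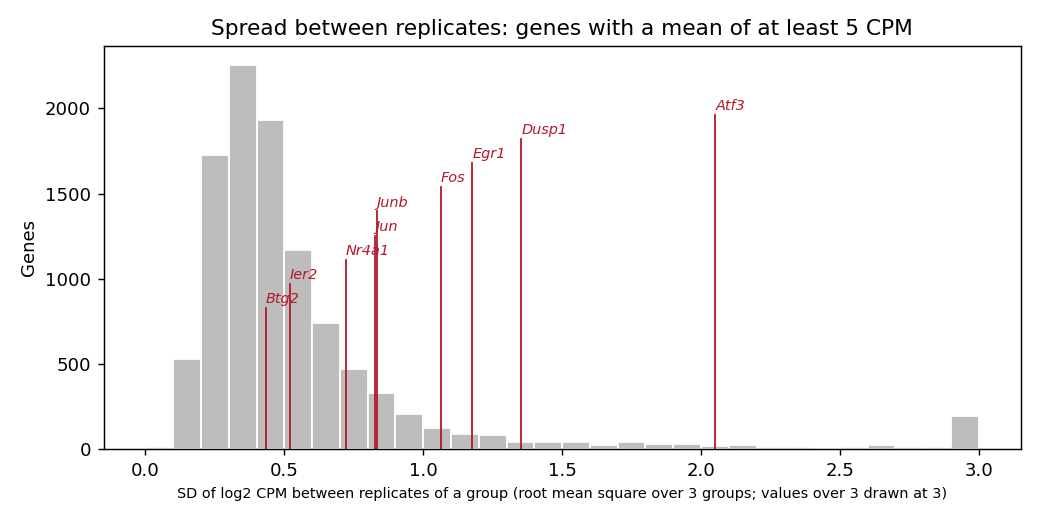
Number of genes by the SD of log2 CPM between replicates of a group, over 10288 genes that averaged 5 CPM or more, with red lines at 9 of the 10 genes. The median of all genes is 0.43; Btg2 sits at 0.43, Fos at 1.06 and Atf3 at 2.05.

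Taken as labelled, pairs of libraries that share a name tag gave no common direction for the 10 genes between the colon fractions. The library labelled replicate 2 of colon GFP-high was higher than the one labelled replicate 2 of colon GFP-negative for 8 of 10 genes, with a median log2 difference of 1.35. Jun was 1 of the 2 that were lower, with 24.2 CPM in the first of them and 65.4 CPM in the other. Lgr5 contradicts the labels of this pair. Colon GFP-high replicate 1 was higher than colon GFP-negative replicate 1 for 5 of 10, with a median difference of 0.08. Between the tissues, colon GFP-high replicate 1 was higher than small intestinal replicate 2 for 9 of 10, colon GFP-negative replicate 1 was higher than the same library for 7 of 10, and colon GFP-high replicate 3 was higher than small intestinal replicate 3 for 4 of 10. Such counts within pairs were not made over all genes.

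By the mean absolute difference over the 9 libraries between a gene's centred log2 CPM and the mean of the 10 genes, 5 other genes were nearest, of 10288 compared and with 0.774 as the median distance. Ppp1r15a, which encodes the stress-induced GADD34 subunit that dephosphorylates eIF2α, lay at 0.252; it belongs itself to the feedback genes, as Rhob does to the other immediate early genes. It had 19.9, 18.1 and 29.6 CPM in the GFP-high colon libraries, 17.1, 16.8 and 27.2 CPM in the GFP-negative colon libraries, and 9.64, 13.6 and 33.8 CPM in the small intestinal libraries, with replicate 3 highest in each group. Ptpn6, which encodes the phosphatase SHP-1, lay at 0.271, the early response GTPase gene Rhob at 0.287, the receptor phosphatase gene Ptprj at 0.292 and the synaptotagmin gene Syt11 at 0.309. Among the 10 genes themselves, without Fosb, which was too low to be compared, Junb was the nearest to the mean, at 0.305. Fos followed at 0.421 and Dusp1 at 0.424, and Nr4a1 was the farthest, at 1.75. Jun at 0.884 and Atf3 at 1.10 also lay farther from the mean than the median gene did. Each of the 10 genes is part of the mean it was measured against.

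Among the other immediate early genes, 20 of 23 were tested, and 2 rose in both colon groups over small intestine while none fell, beside the 8.79% of all genes called in this comparison. The counts of this and the next 4 lists are each 2 or fewer and are read against that share, with nothing particular claimed for a list. Sgk1, a kinase gene induced by serum and corticosteroids, had 140.4, 96.6 and 191 CPM in the GFP-high colon libraries, 54.5, 119 and 153 CPM in the GFP-negative colon libraries, and 41.7, 19.5 and 34.7 CPM in the small intestinal libraries. No small intestinal value reached the colon range, and the log2 fold change was 1.96 ± 0.42 (edgeR adjusted p = 0.0218). Tsc22d1, a TGFβ-induced leucine zipper gene, averaged 325 ± 34.6 CPM in the 6 colon libraries and 112 ± 59.1 CPM in the 3 small intestinal ones (SD), a log2 fold change of 1.54 ± 0.33 (adjusted p = 0.0232). Myc was at 73.3 to 217 CPM in colon and 139.5 to 391 CPM in small intestine; its estimate of -1.10 ± 0.44 (log2) did not pass (adjusted p = 0.16). The median of the 20 genes was 0.67 (log2), beside -0.00 over all genes.

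Of 19 feedback and mRNA decay genes, 1 rose and 1 fell in both colon groups over small intestine, with a median of -0.16. Btg3, a relative of Btg2, had 19.8, 25.8 and 12.5 CPM in the GFP-high colon libraries, 17.8, 20.4 and 14.0 CPM in the GFP-negative colon libraries, and 2.43, 4.17 and 2.29 CPM in the small intestinal libraries. The colon libraries all stood above the small intestinal ones, with a log2 fold change of 2.63 ± 0.35 (edgeR adjusted p = 0.00301). Nfkbiz, an inducible regulator of NF-κB, averaged 23.0 ± 8.98 CPM in colon and 62.9 ± 15.5 CPM in small intestine, a log2 fold change of -1.46 ± 0.33 (adjusted p = 0.0276).

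Upstream factors and kinases (TCF, MRTF, CREB and MAP kinase genes) numbered 22, of which none rose and 2 fell in both colon groups over small intestine, with a median of -0.22. Mapk14, which encodes the stress kinase p38α, averaged 29.3 ± 5.24 CPM in colon and 50.8 ± 5.89 CPM in small intestine, a log2 fold change of -0.81 ± 0.17 (edgeR adjusted p = 0.0211), and Map2k2, which encodes the ERK kinase MEK2, had one of -0.71 ± 0.17 (adjusted p = 0.0316). In colon GFP-negative over small intestine alone, the TCF gene Elk3 was also called, at 4.36 ± 1.05 (adjusted p = 0.0475), with 0.829, 1.15 and 8.73 CPM in the GFP-negative colon libraries and 0.219, 0.205 and 0.101 CPM in the small intestinal libraries. That value came to 2.49 without colon GFP-negative replicate 3, and the call was lost in 8 of the 9 fits that left out 1 library (adjusted p up to 0.182).

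Heat shock and unfolded protein stress genes numbered 17 tested of 18, and 1 fell in both colon groups over small intestine, with a median of -0.51. Hsph1, a co-chaperone gene, averaged 32.8 ± 13.5 CPM in colon and 89.0 ± 8.73 CPM in small intestine, a log2 fold change of -1.44 ± 0.34 (edgeR adjusted p = 0.0329). Hspa1a, the inducible HSP70 gene that is also known to respond to dissociation, named here after its values were seen, had 9.30, 2.14 and 2.42 CPM in the GFP-high colon libraries, 4.08, 0.199 and 0.0322 CPM in the GFP-negative colon libraries, and 1.12, 9.50 and 14.1 CPM in the small intestinal libraries. In colon GFP-negative replicate 3, where 5 of the 10 immediate early genes had their highest value, Hspa1a was at its lowest. In small intestinal replicate 3, which was the highest of its group for all 10, Hspa1a was at its highest. A link between Hspa1a and the 10 genes was not tested.

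Of 13 p53 targets, 1 rose and 1 fell in both colon groups over small intestine, with a median of 0.10. Trp53inp1, a p53-induced nuclear protein gene, averaged 11.99 ± 2.63 CPM in colon and 4.60 ± 0.617 CPM in small intestine, a log2 fold change of 1.38 ± 0.29 (edgeR adjusted p = 0.0198). Sesn1, which encodes the stress protein sestrin 1, had 10.5, 16.6 and 14.1 CPM in the GFP-high colon libraries, 16.7, 12.7 and 21.2 CPM in the GFP-negative colon libraries, and 112, 40.5 and 62.2 CPM in the small intestinal libraries, and fell by 2.23 ± 0.32 on the log2 scale (adjusted p = 0.00409). In colon GFP-high over colon GFP-negative, none of the genes in any of these 6 lists was called by edgeR. Of the 9 list genes called for both colon groups over small intestine, Btg3 and Sesn1 stayed called without each library in turn, with adjusted p-values up to 0.0206 and 0.017. With the tag replicate block all 9 lost the call (adjusted p of 0.129 for Btg3, 0.193 for Sesn1 and up to 0.429 for the others). Besides Btg3 and Sesn1, the 7 genes kept their direction when 1 library was left out and lost the call without small intestinal replicate 3. Sgk1 and Trp53inp1 also lost it without either other small intestinal library (adjusted p up to 0.0827 and 0.0816), and Trp53inp1 without colon GFP-negative replicate 1. Tsc22d1 lost it without small intestinal replicate 2, replicate 1 of either colon group (up to 0.0909). Nfkbiz lost it without small intestinal replicate 1 or colon GFP-negative replicates 1 or 2 (up to 0.131), and Mapk14 without these or small intestinal replicate 2 (up to 0.107). Hsph1 lost it without 6 of the 9 libraries, all but colon GFP-high replicate 3 and colon GFP-negative replicates 2 and 3 (up to 0.138), and Map2k2 without any 1 of the 9 (0.0589 to 0.0985).

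Some counts are uncertain as single genes, since the strand setting of the counting is not given in the sources used here. Junb overlaps Prdx2 on the opposite strand (up to 509 CPM), Dusp1 overlaps Ergic1 (up to 281 CPM) and Jun overlaps the antisense gene Junos (up to 4.37 CPM). Nr4a1 overlapped no other gene in the annotation used for coordinates.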

How the data were processed

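Polyadenylated RNA of 9 libraries was counted per gene. The tools named without version, per the submitters' processing notes, are edgeR, STAR, Subread and featureCounts, and the build is mm10. Per the file headers, the deposited table has raw read counts, the authors' log2 CPM, log2 RPKM and log2 TPM, gene lengths and a TMM scaling factor per library, a ratio of 0.805 to 1.21. Only the counts entered the tests; CPM and RPKM were computed here from the counts, the deposited totals and the deposited factors. The sources used here give neither multi-read nor strand handling.

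Tests used R 4.3.3 and edgeR 4.0.16: filterByExpr by group (20610 genes tested, 57629 not), TMM scaling, 1 quasi-likelihood fit of all 9 libraries, 4 two-sided contrasts and Benjamini-Hochberg adjustment over all genes tested. A gene was called at an adjusted p under 0.05. The standard error comes from the fold change and its F statistic. Centred values used log2 of CPM with 2 counts added per library. The biological coefficient of variation was 0.726, so spread between libraries and not depth limited precision. The fit was tested on simulated data. DESeq2 1.42.0, limma-voom 3.58.1, other scalings, filters, blocks and left-out libraries were tried as alternatives.

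The members and lists were chosen with earlier results of these data known, and so was the alternative without the colon replicate 2 pair. In each list, genes could be named if called (up to 6) or among the 2 of highest mean CPM, and not all of these appear in the text. The 5 nearest genes were named by distance. Genes outside this rule are marked in the text. Gene coordinates come from GENCODE M21 (GRCm38); the counts may rest on another annotation. Promoters are RefSeq's, GRCm38.p6.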

Additional observations from a re-analysis of the deposited data

How the results depend on the processing

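Nr4a1 stayed called in every comparison with the small intestine under DESeq2, limma-voom, the other scalings and filters, the title number as a replicate block and each left-out library or pair, with log2 fold changes of 4.11 to 4.90 for both colon groups over small intestine when 1 library was left out. The call was lost with the tag replicate block, which called 0 of the 10 genes and in all genes 18 (colon GFP-high over small intestine), 0 (colon GFP-negative over small intestine) and 18 (both). The numbers were not found to pair the samples: correlations of deviations between same-numbered libraries were -0.0864, -0.604 and -0.245 for the colon fractions, -0.24, -0.288 and 0.131 for colon GFP-high with small intestine, and 0.081, 0.303 and 0.0212 for colon GFP-negative with small intestine. Libraries of different numbers gave -0.313 to 0.453. The deviations are from group means as labelled, so the colon replicate 2 pair, whose labels Lgr5 contradicts, enters these values and limits what they can decide.

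Counts of all genes called moved most. Colon GFP-high over small intestine had 1173, against 2713 in DESeq2, 508 with the replicate block, 508 without the colon replicate 2 pair, 297 without the 2 libraries that share a tag at replicate 3 (chosen after seeing the data) and 564 to 1375 without 1 library; it moved over 1.5 times without each colon GFP-high library, colon GFP-negative replicate 1 and small intestinal replicates 1 and 3. Colon GFP-negative over small intestine had 1166, against 2859, 532 with the replicate block, 395 without the shared-tag libraries and 531 to 1078 without 1 library (colon GFP-negative replicate 1, small intestinal replicates 1 and 3). Both over small intestine had 1812, against 3618, 895, 1089 without the pair, 580 and 991 to 1787 (the same 3 libraries). DESeq2 called 1 gene between the colon fractions.

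Signs of uncalled estimates turned often. Between the fractions, limma-voom gave Fos 0.18, Junb 0.14 and Dusp1 0.13; the replicate block Fos 0.31, Junb 0.21 and Dusp1 0.11; the tag replicate block Fos 0.53, Junb 0.56, Dusp1 0.22 and Nr4a1 0.26. Fosb came to -0.19 without the pair and -0.16 without the shared-tag libraries, Atf3 to -0.26 there. Without 1 library the ranges were Fos -0.58 to 0.69, Fosb -0.43 to 2.45, Junb -0.56 to 0.68, Atf3 -0.26 to 2.30, Dusp1 -0.79 to 0.85, Nr4a1 -0.89 to 0.29 and Btg2 -0.42 to 0.019. For both colon groups over small intestine, the replicate block gave Fos 0.0071 and Atf3 0.20; the tag replicate block Fosb -0.63, Junb -0.014, Ier2 -0.15 and Atf3 1.43; limma-voom Fosb -0.14; total-count scaling Fosb -0.031; leaving out the pair Atf3 0.23; leaving out the shared-tag libraries Fos 0.84, Egr1 0.15 and Atf3 0.30. Without 1 library the ranges were Fos -0.70 to 0.77, Fosb -1.07 to 1.38, Junb -0.34 to 0.53, Egr1 -1.64 to 0.34, Ier2 -0.20 to 0.37, Atf3 -1.20 to 1.33 and Dusp1 -0.39 to 1.73. The cause of these changes was not tested. Fosb has no value under the filter of 1 CPM in 3 libraries.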
